A study of Mus musculus with 60 samples.

Results

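Secretory granule and exocytosis genes of mouse pancreatic islets were described as a set of 34 genes, from the granins packed into granules to the proteins that carry, dock and fuse them. A gene entered through the probe sets that the array annotation ties to its symbol alone, and the probe set with the widest interquartile range over the 52 arrays kept by the submitters stood for it. Of the 34 genes, 33 had such a probe set, out of 18193 named genes on the array. Pcsk2, a prohormone convertase, was not matched to a probe set of its own and is not analysed here. All 33 were among the 13176 genes past a filter on spread (40th percentile of the interquartile range). Because the chosen probe set is the most variable one of its gene, its difference can be larger than that of the gene's other probe sets, and these are given where they disagree.

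All islets came from male pIns-MYCERTAM mice on a CBA-C57BL/6 background. One label gives an age of 8 to 12 weeks and the treatment protocol gives 3 months, which was not resolved. Their beta cells make MYC joined to a modified hormone-binding domain of the oestrogen receptor, under control of the insulin promoter, and this MYCERTAM protein becomes active when 4-hydroxytamoxifen binds it. MycON mice received 1 mg of 4-hydroxytamoxifen in the abdominal cavity every day, and MycOFF mice received peanut oil. Both kinds of mice also had injections of water or of exendin-4 (50 µg/kg, subcutaneous), a peptide that activates the receptor of the gut hormone GLP-1, and these began 2 days earlier. Islets were taken by laser capture from frozen pancreas sections after 4, 8, 16, 32 or 72 h, which makes 20 groups of 3 arrays. The control mice carried the transgene as well, and no group received 4-hydroxytamoxifen without it, so an effect of MYC and an effect of the drug cannot be told apart. The labels call the arrays biological replicates without naming the animals, so the p-values measure the spread between arrays.

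A beta cell stores insulin in dense-core granules. Granins help the granule core to form, and convertases and their helpers cut proinsulin and other prohormones on the way. Rab GTPases and their effectors then bring granules to the plasma membrane, docking and priming proteins make them ready, and SNARE proteins fuse them when synaptotagmins sense calcium. GLP-1 receptor agonists raise cyclic AMP in beta cells, which is known to enhance this release, while sustained MYC activity in beta cells is known to go with loss of differentiated features.

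The deposited values are log2 values from which the median of each probe set over all 60 arrays was already taken. A value of 0 is thus the median array, no level can be read, and levels of different genes were not compared. Because of poor reproducibility 8 of the 60 arrays were dropped by the submitters, which left 12 groups of 3 arrays and 8 groups of 2. The standard deviation over probe sets lay between 0.283 and 0.946 on the kept arrays and between 0.968 and 1.39 on those left out. Of 13 tested beta cell markers 11 were below 0 in the MYC effect and 3 passed the test (Pdx1, Ucn3 and Slc2a2), while Ins2 differed by 0.10 ± 0.69 (SE). Defining markers of the islet could not be checked for presence, since a centred value does not show whether a gene was detected.

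The arrays left out lay below the kept ones in the median of the granule genes. Whether other tissue was captured on the arrays left out was not tested. The median over the 33 genes lay between -3.64 and -0.874 on these 8 arrays and between -0.742 and 1.03 on the 52 kept ones. Between 7 and 21 of the 33 genes were below -2 on each array left out, against 0 to 4 on each kept array. Some granins reached the lowest values. Chgb (chromogranin B) ran from -10.9 to -1.42 on the arrays left out and from -1.34 to 1.43 on those kept. Scg3 (secretogranin III), which binds chromogranin A in the granule, ran from -10.2 to -1.14 against -0.81 to 0.64. In 8 genes (Chgb, Scg3, Pcsk1, Ptprn, Rab3a, Rab27a, Rph3al and Pclo) all 8 arrays lay below every kept array. The arrays left out also had a wider spread over all probe sets. Counts over all genes are not given here for these arrays, so those of the granule genes are not set against a background. In Nsf, Vamp2 and Doc2b, 1 of the 8 arrays lay below all kept ones. Doc2b ran from -0.598 to -0.0111 on the arrays left out. Rims2 (-0.479 to -0.0154) and Rab3b (-0.426 to 0.124) also stayed near 0 there. A centred value does not show whether such probe sets lay near a detection floor. The array nearest to the kept ones was MycON with water at 32 h, replicate 1, with a median of -0.874.

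**Figure D1:**
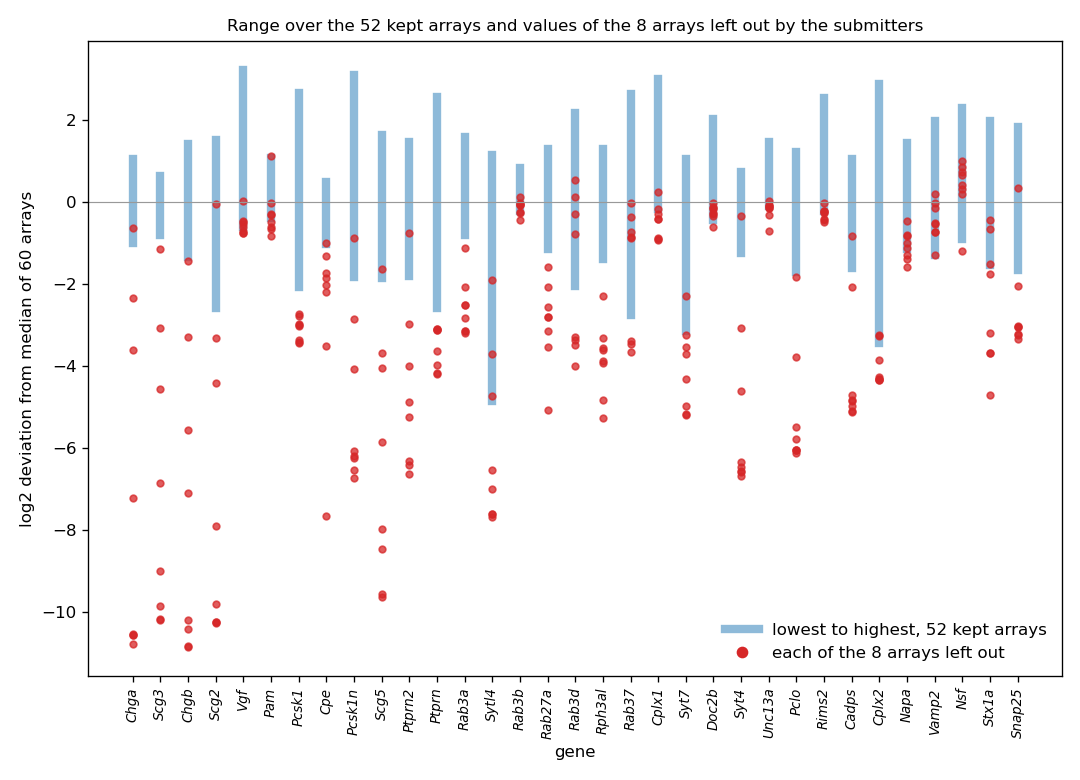
Log2 deviation from the median of 60 arrays for each of the 33 genes (x axis, grouped by role); blue bars span the lowest to the highest of the 52 kept arrays and red points are the 8 arrays left out by the submitters. Granins such as Chgb reach -10.9 on the arrays left out, while Nsf, Vamp2 and Doc2b stay within or near the range of the kept arrays.

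With MYC active, 5 of the 33 genes fell and 0 rose, as the mean of both injections and of the 5 times (limma, Benjamini-Hochberg adjusted p under 0.05 over all 13176 genes tested). They were Rab37, Rph3al and Rab3d among the Rab GTPases and their effectors, Cplx2 among the priming genes and Stx1a among the SNAREs. Over all genes tested 5.48% fell and 9.93% rose, or 15.4% in all. Set against this background, the total share among the 33 genes was alike, and the calls lay on the lower side. The differences of 27 of the 33 genes (81.8%) were below 0, against 55.1% of all genes, and their median was -0.26 against -0.03. At an unadjusted p under 0.05 there were 11 of 33 genes, against 27.5% of all. With all 60 arrays 2 of 33 genes fell, Rab37 and Cplx2, and fewer of all genes passed as well, as given below. After quantile normalization 9 fell, with the cargo genes Scg3 (limma adjusted p = 0.0256) and Chgb (0.0361) among them. The count over all genes after quantile normalization is not given here, so these 9 are not set against a background. In captured islets, fewer beta cells and less RNA per beta cell cannot be told apart.

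Markers of other cells moved with MYC in the same arrays. Immune markers rose in 5 of 9, led by Cd68, a macrophage protein, at +2.06 ± 0.27, and the mean of the 9 ran from -0.96 to 2.99 over MycON arrays and from -1.52 to 0.69 over MycOFF arrays. All 11 acinar markers were above 0 with a median of 0.40 and none passed, and their mean ran from -1.28 to 3.25 with MYC and from -1.34 to 3.27 without. The mean of the 13 beta cell markers ran from -0.92 to 0.94 with MYC and from -0.88 to 1.25 without. Neural and glial markers gave 2 rises and 1 fall among 8, and their mean ran from -0.25 to 0.95 with MYC and from -0.73 to 0.93 without. Endothelial markers gave 2 falls among 6, Kdr at -0.85 ± 0.20 and Flt1 at -0.73 ± 0.25, and their mean ran from -0.83 to 0.69 with MYC and from -1.10 to 1.15 without. Stromal markers were above 0 in 6 of 7 with a median of 0.41, and none passed. Delta and PP cell markers differed between the injections. Their median MYC effect was -0.42 with water (4 of 5 below 0) and 0.57 with exendin-4 (5 of 5 above 0), and none passed. The part of these shifts in the granule gene differences was not tested.

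**Figure D2:**
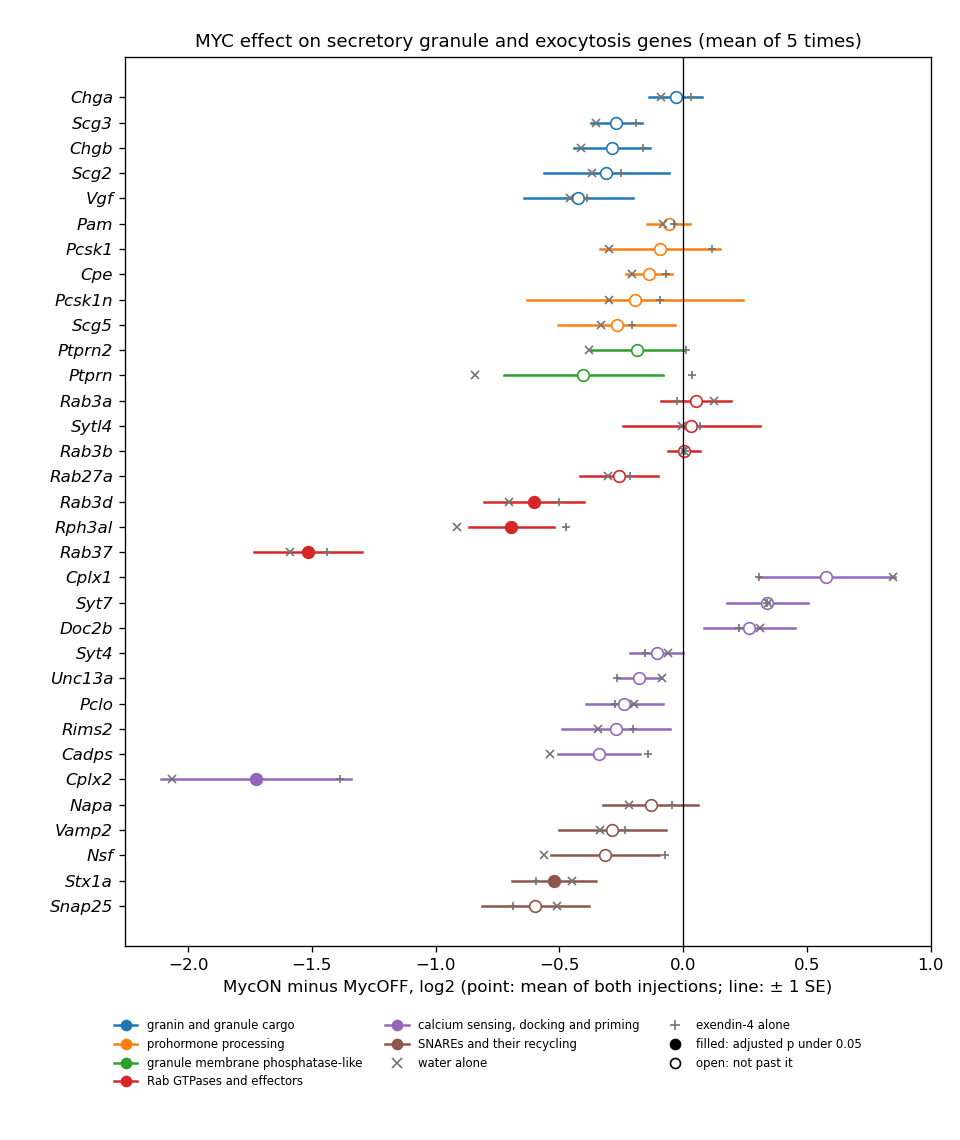
MYC effect (MycON minus MycOFF, log2) for each of the 33 genes, grouped by role; points are the mean of both injections with ± 1 SE, crosses are water alone and plus signs exendin-4 alone, and filled points passed an adjusted p of 0.05. Rab37 at -1.51 and Cplx2 at -1.73 lie far below the other genes, and Cplx1 at +0.58 is the highest.

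The Rab GTPases and their effectors held 3 of the 5 calls. Rab37 is a Rab GTPase found on secretory granules. Its 27 MycOFF arrays had a lowest value of -0.37, a median of 0.98 and a highest of 2.65, and its 25 MycON arrays had -2.76, -0.69 and 1.72. The groups overlapped, but all 27 MycOFF arrays lay above the MycON median and 24 of 25 MycON arrays lay below the MycOFF median. The difference was -1.51 ± 0.22, a 2.86-fold fall (limma adjusted p = 5.47e-06). A second Rab37 probe set, whose spread was below the filter, differed by -0.12.

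Rph3al, also called Noc2, is an effector of Rab3 and Rab27 that is needed for regulated secretion in endocrine cells. Its MycOFF arrays ran from -1.38 over a median of 0.59 to 1.30, and its MycON arrays from -1.31 over -0.37 to 1.01. Both groups covered nearly the same range, and 22 of 25 MycON arrays lay below the MycOFF median. The fall was 0.69 ± 0.17 (log2 difference -0.69, limma adjusted p = 0.00446), and a second probe set differed by -0.18.

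Rab3d belongs to the Rab3 family of granule-bound GTPases. MycOFF arrays ran from -2.04 over 0.55 to 2.18 and MycON arrays from -1.02 over -0.28 to 1.02. The lowest array was a MycOFF one, and 21 of 25 MycON arrays lay below the MycOFF median. The difference was -0.60 ± 0.20 (limma adjusted p = 0.0373). The other 3 probe sets of Rab3d differed by -0.17, -0.42 and -0.22. This call ended in 19 of 52 fits that each left out 1 array, with an adjusted p of up to 0.0743 without MycON with exendin-4 at 16 h, replicate 1.

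The remaining 4 genes of this role did not pass. Rab27a, which recruits granules to the cell cortex, differed by -0.26 ± 0.16. Rab3a differed by 0.05 ± 0.14, Rab3b by 0.00 ± 0.06 and the Rab27 effector Sytl4 (granuphilin) by 0.03 ± 0.28. The interval of Rab3b reached from -0.13 to 0.14, while that of Sytl4 reached from -0.53 to 0.59.

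Among the genes for calcium sensing, docking and priming, Cplx2 fell. Complexin 2 binds assembled SNARE complexes, holds them and lets fusion follow the calcium signal. Its MycOFF arrays ran from -1.24 over a median of 1.09 to 2.88, and its MycON arrays from -3.43 over -0.42 to 2.31. The groups overlapped widely, with 21 of 25 MycON arrays below the MycOFF median and 24 of 27 MycOFF arrays above the MycON median. The difference was -1.73 ± 0.38, a 3.31-fold fall (limma adjusted p = 0.00149), and in size it was the lowest of all 13176 genes tested. The other 2 probe sets of Cplx2 differed by -0.52 and -0.62, so the direction was shared and the size was not.

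Cplx1, the related complexin 1, had the highest difference of the 33 genes and did not pass. Its MycOFF arrays ran from -0.17 over -0.11 to 2.67 and its MycON arrays from -0.17 over 0.56 to 3.01. The lowest values of both groups were alike to 2 decimals, and 6 of 25 MycON arrays lay below the MycOFF median. The difference was 0.58 ± 0.28 (limma adjusted p = 0.167).

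Syt7, a calcium sensor of slow and sustained release, differed by 0.34 ± 0.17 (limma adjusted p = 0.174), and Doc2b, another calcium-binding protein of the release site, by 0.27 ± 0.18. Below 0 were Cadps (CAPS1, a priming factor of dense-core granules) at -0.34 ± 0.17, Rims2 (a scaffold that binds Rab3) at -0.27 ± 0.22 and Pclo (piccolo, a scaffold) at -0.24 ± 0.15. Unc13a (Munc13-1, which opens syntaxin for priming) was at -0.18 ± 0.09 and Syt4 at -0.11 ± 0.11, and these genes did not pass. Some of their other probe sets differed. Each of the 27022 probe sets past the filter was also tested on its own, and 12.5% of them passed. Of the 58 tested probe sets of the granule genes, 9 passed. These included all 3 of Cplx2, a second one of Pclo at -0.56 (limma adjusted p = 4.34e-04) and a second one of Rims2 at -0.59 (limma adjusted p = 0.0055).

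All 5 genes for SNAREs and their recycling were below 0 and 1 of them passed. Stx1a, syntaxin 1A of the plasma membrane, ran from -0.52 over 0.58 to 1.99 on MycOFF arrays and from -1.53 over -0.02 to 1.31 on MycON arrays. The groups overlapped over most of their range, and 20 of 25 MycON arrays lay below the MycOFF median. The difference was -0.52 ± 0.17 (limma adjusted p = 0.0301), and a second probe set differed by -0.05. The call ended in 6 of 52 fits that left out 1 array, with an adjusted p of up to 0.0815 without MycON with exendin-4 at 4 h, replicate 2.

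Snap25, the partner of syntaxin 1A in the target membrane, missed the threshold at -0.60 ± 0.22 (limma adjusted p = 0.0577), with a second probe set at -0.13. Its MycOFF arrays ran from -1.67 over 0.53 to 1.84 and its MycON arrays from -1.55 over -0.15 to 1.30, so both groups covered about the same range. Vamp2, the SNARE of the granule membrane, differed by -0.29 ± 0.22. Nsf and Napa, the ATPase and its adaptor that take used SNARE complexes apart, differed by -0.32 ± 0.22 and -0.13 ± 0.19.

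**Figure D3:**
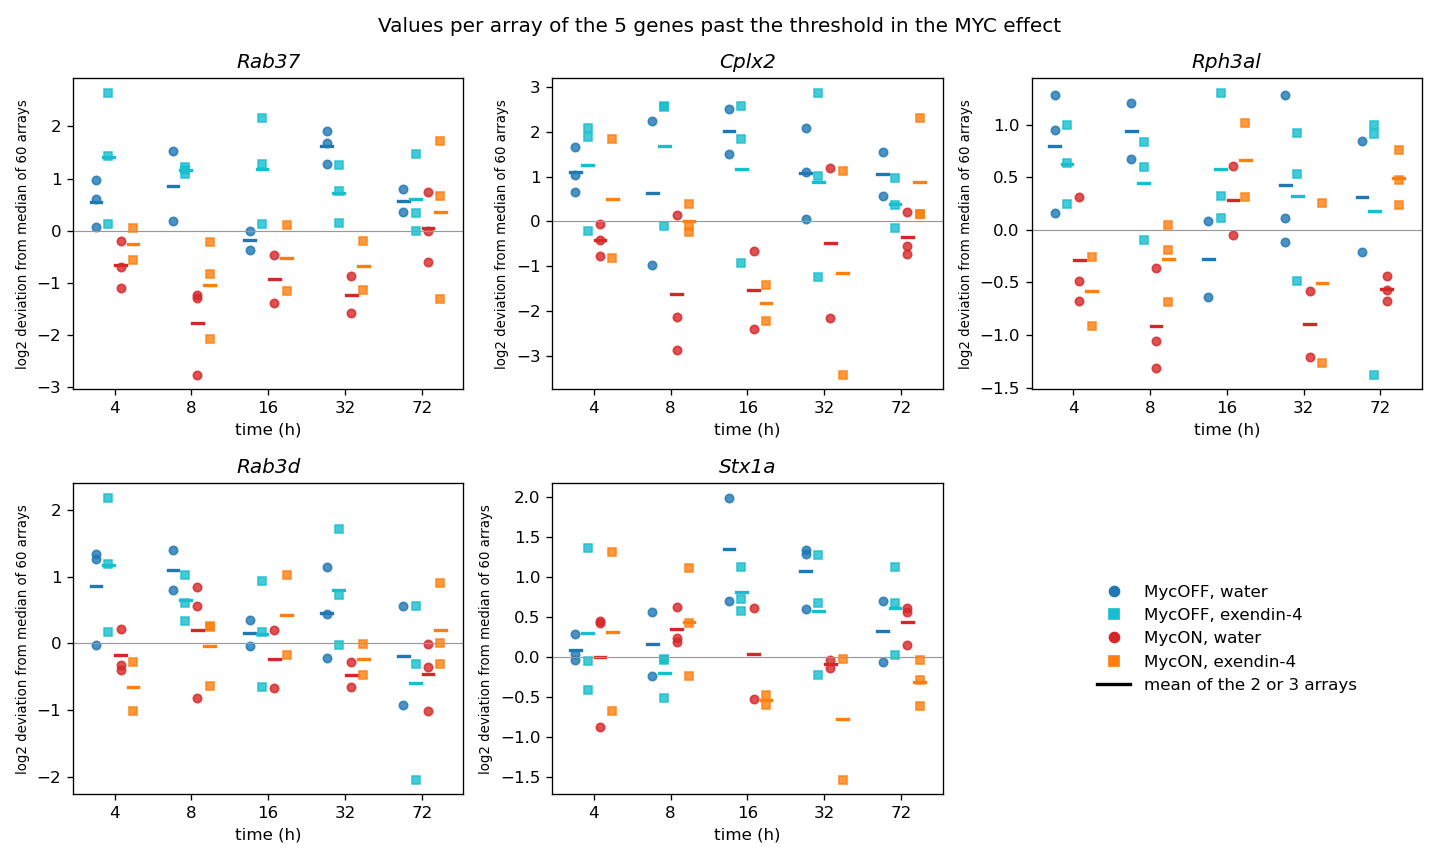
Log2 deviation from the median of 60 arrays on each kept array (points) for the 5 genes that fell with MYC, by time in hours, with MycOFF in blue shades, MycON in red and orange, and short lines at the mean of 2 or 3 arrays. For Rab37 the MycON arrays at 8 h, at -2.76 to -0.21, all lie below the MycOFF arrays, at 0.19 to 1.52, and at 72 h both overlap.

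All 5 cargo genes, all 5 measured processing genes and both phosphatase-like genes of the granule membrane were below 0, and none of these 12 passed. Among the cargo genes, Scg3 came nearest at -0.27 ± 0.10 (limma adjusted p = 0.0724), and it passed without the 4 arrays of widest spread (limma adjusted p = 0.00667). Its values were held closely together, from -0.81 over 0.17 to 0.64 on MycOFF arrays and from -0.66 over -0.07 to 0.39 on MycON arrays. Vgf, a granin-like neuropeptide precursor, differed by -0.42 ± 0.22, Scg2 (secretogranin II) by -0.31 ± 0.25, Chgb by -0.29 ± 0.15 and Chga (chromogranin A) by -0.03 ± 0.11.

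The processing genes were Scg5 (7B2, the chaperone of the convertase PC2) at -0.27 ± 0.24, Pcsk1n (proSAAS, an inhibitor of PC1/3) at -0.20 ± 0.44 and Cpe (carboxypeptidase E) at -0.14 ± 0.09. Pcsk1, which encodes the convertase PC1/3 itself, was at -0.09 ± 0.24 and Pam, which amidates peptides, at -0.06 ± 0.09. Ptprn (IA-2) and Ptprn2 (phogrin), receptor-like phosphatase proteins of the granule membrane, differed by -0.40 ± 0.32 and -0.19 ± 0.19. The intervals differ in width, such as -0.25 to 0.19 for Chga and -1.08 to 0.69 for Pcsk1n. A 2-fold fall was inside the interval for Pcsk1n and for Ptprn, and outside it for Chga.

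Promoters were searched for a motif tied to each treatment. As background, cyclic AMP signals to the factor CREB, which binds the CRE motif TGACGTCA, and MYC with its partner MAX binds the E-box CACGTG. Both motifs read the same on either strand, and a CRE and an E-box did not overlap in the windows printed. RefSeq promoter windows of assembly GRCm38.p6, from 250 bases before to 50 bases after a start, were at hand for 24 of the 33 genes. The CRE was found in 4 of these 24 genes (16.7%), against 2.03% of 27025 genes with a window, and the E-box in 3 of 24 (12.5%) against 8.09%. The 4 genes with a CRE are printed because 3 of them, Chgb, Scg2 and Pcsk1, encode granule cargo or its convertase and carry it at a similar distance from the start, and the fourth, Napa, holds both motifs. Capitals mark the CRE, and in Napa also 3 E-boxes; each sequence reads 5′ to 3′ on the strand of its gene.
Chgb, chr2:132781392-132781691, plus strand: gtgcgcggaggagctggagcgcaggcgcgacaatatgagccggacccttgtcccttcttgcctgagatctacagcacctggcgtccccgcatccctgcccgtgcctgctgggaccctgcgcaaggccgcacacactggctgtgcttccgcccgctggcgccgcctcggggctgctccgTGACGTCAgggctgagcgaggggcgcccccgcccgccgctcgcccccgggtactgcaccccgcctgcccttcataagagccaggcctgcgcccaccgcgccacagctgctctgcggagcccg
Scg2, chr1:79439977-79440276, minus strand: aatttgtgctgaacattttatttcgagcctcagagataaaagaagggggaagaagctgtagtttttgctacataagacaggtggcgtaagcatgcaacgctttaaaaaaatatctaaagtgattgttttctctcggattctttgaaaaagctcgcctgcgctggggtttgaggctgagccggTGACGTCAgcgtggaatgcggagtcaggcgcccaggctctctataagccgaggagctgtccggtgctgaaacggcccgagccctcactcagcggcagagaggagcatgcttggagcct
Pcsk1, chr13:75089607-75089906, plus strand: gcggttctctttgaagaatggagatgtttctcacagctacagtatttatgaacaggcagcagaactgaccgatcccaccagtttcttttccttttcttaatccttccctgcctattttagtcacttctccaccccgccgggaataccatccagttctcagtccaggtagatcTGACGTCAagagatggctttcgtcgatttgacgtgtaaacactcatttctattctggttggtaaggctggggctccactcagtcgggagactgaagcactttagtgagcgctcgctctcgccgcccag
Napa, chr7:16098330-16098629, plus strand: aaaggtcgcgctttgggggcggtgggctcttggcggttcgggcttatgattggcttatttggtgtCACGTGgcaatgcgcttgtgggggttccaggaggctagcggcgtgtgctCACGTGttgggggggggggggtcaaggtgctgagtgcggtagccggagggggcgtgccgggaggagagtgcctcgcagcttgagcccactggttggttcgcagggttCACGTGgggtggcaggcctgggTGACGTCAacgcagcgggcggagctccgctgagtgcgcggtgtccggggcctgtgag

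The CRE began 72 bases before the start in Chgb, 68 in Scg2, 78 in Pcsk1 and 7 in Napa. With exendin-4, these genes differed by 0.05 (95% interval -0.26 to 0.36) for Chgb, -0.13 (-0.65 to 0.38) for Scg2, 0.06 (-0.43 to 0.55) for Pcsk1 and 0.34 (-0.05 to 0.73) for Napa, as the mean of both MYC states. None of the 4 passed the test, and the intervals of all 4 include 0. They also include rises above 0.30, and those of Scg2 and Pcsk1 include falls of more than 0.30 as well. The E-boxes lay in Napa, Nsf and Rab27a, whose MYC differences are given above and did not pass. Of the genes that fell with MYC, Cplx2, Rph3al, Stx1a and Rab3d had windows with neither motif, which says only that these letters are not in those windows. The Rab37 promoter was not analysed here.

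With water alone, 3 of the 33 genes fell and 0 rose (1.65% of all genes fell and 3.94% rose), and with exendin-4 alone 1 fell and 0 rose (1.23% and 4.56%). Rab37 fell in both, by 1.59 ± 0.32 with water (limma adjusted p = 0.00155) and by 1.44 ± 0.30 with exendin-4 (limma adjusted p = 0.00256). Cplx2 fell with water, at -2.06 ± 0.55 (limma adjusted p = 0.0194), and was at -1.39 ± 0.53 with exendin-4 (limma adjusted p = 0.128). Rph3al fell with water, at -0.91 ± 0.25 (limma adjusted p = 0.0225), and was at -0.47 ± 0.24 with exendin-4 (limma adjusted p = 0.293). These gaps between the injections did not pass a test of their own. In the test of interaction, 0 of 33 genes and 0 of all genes passed (0%), with 0 of 33 and 250 of all genes at an unadjusted p under 0.05. The MYC effect with exendin-4 minus that with water was 0.15 for Rab37 (95% interval -0.74 to 1.03), 0.68 for Cplx2 (-0.87 to 2.23) and 0.44 for Rph3al (-0.26 to 1.14). The widest gap in size among the 33 was that of Ptprn, at 0.87 (-0.43 to 2.18). Both calls of Cplx2 and Rph3al with water ended without MycON with water at 32 h, replicate 3, or without MycOFF with water at 16 h, replicate 3, which leaves 1 of 33 genes.

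At single times the calls were few. At 8 h, Rab37 and Rph3al fell (2 of 33 genes, 0.934% of all genes fell), at 16 h Cplx2 (0.22%) and at 32 h Rab37 (0.949%). At 4 h and at 72 h 0 of 33 genes fell (0.713% and 0.228% of all genes), with 7 and 2 of 33 at an unadjusted p under 0.05 (12% and 10.7% of all genes), by limma. Over all genes 1.58%, 3%, 2.06%, 2.36% and 1.15% rose at the 5 times, and 0 of the 33 did at each. At 8 h, Rab37 was at -2.76, -1.23 and -1.29 on the MycON arrays with water and at -0.82, -0.21 and -2.08 with exendin-4. The MycOFF arrays at 8 h were at 0.19 and 1.52 with water and at 1.23, 1.16 and 1.08 with exendin-4. All 6 MycON arrays lay below all 5 MycOFF arrays, and the difference of -2.40 ± 0.47 is a 5.28-fold fall (limma adjusted p = 0.00196).

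At 72 h the Rab37 arrays with MYC were at -0.01, 0.74 and -0.60 with water and at -1.30, 0.68 and 1.72 with exendin-4. The MycOFF arrays at 72 h were at 0.80 and 0.35 with water and at 1.48, 0.00 and 0.34 with exendin-4. The highest array and the lowest one were both MycON, and the difference was -0.39 ± 0.47 (limma adjusted p = 0.882). The differences at 4, 16 and 32 h were -1.44, -1.23 and -2.12.

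Cplx2 at 16 h was at -0.67 and -2.40 on MycON arrays with water and at -1.41 and -2.23 with exendin-4, against 1.5 and 2.51 and against -0.93, 1.84 and 2.59 on MycOFF arrays. The lowest MycOFF array lay among the MycON arrays and the other 4 above them. The difference was -3.26 ± 0.92 (limma adjusted p = 0.0484), and this call ended in 33 of 52 fits that each left out 1 array. Rph3al at 8 h differed by -1.28 ± 0.37 (limma adjusted p = 0.0429), and its call ended in 9 of 52 such fits. The call of Rab37 at 32 h, at -2.12 ± 0.50 (limma adjusted p = 0.0107), ended without MycON with water at 32 h, replicate 3, or MycON with exendin-4 at 32 h, replicate 1.

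Differences between the times did not pass for any of the 33 genes. In limma's moderated F test of the MYC effect over time 0 of 33 passed (1.59% of all genes did). The 3 genes at an unadjusted p under 0.05 were Stx1a (adjusted p = 0.189), Rph3al (0.308) and Rab37 (0.357). The effect on Stx1a was -0.04 at 4 h, 0.41 at 8 h, -1.32 at 16 h, -1.26 at 32 h and -0.40 at 72 h. In MycOFF islets 0 of 33 changed over time (0.00759% of all genes), with Syt7, Rab3d and Stx1a at an unadjusted p under 0.05. Of the 33 genes, 26, 24, 18, 20 and 25 were below 0 at 4, 8, 16, 32 and 72 h, against 60.6%, 44.1%, 47.3%, 56.6% and 56.2% of all genes. The shares of the 33 genes were 54.5% at 16 h and 60.6% at 32 h, near those of all genes. Rab37, Cplx2, Snap25, Scg3 and Vgf were below 0 at all 5 times. Cplx1 and Syt7 were above 0 at all 5 times.

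**Figure D4:**
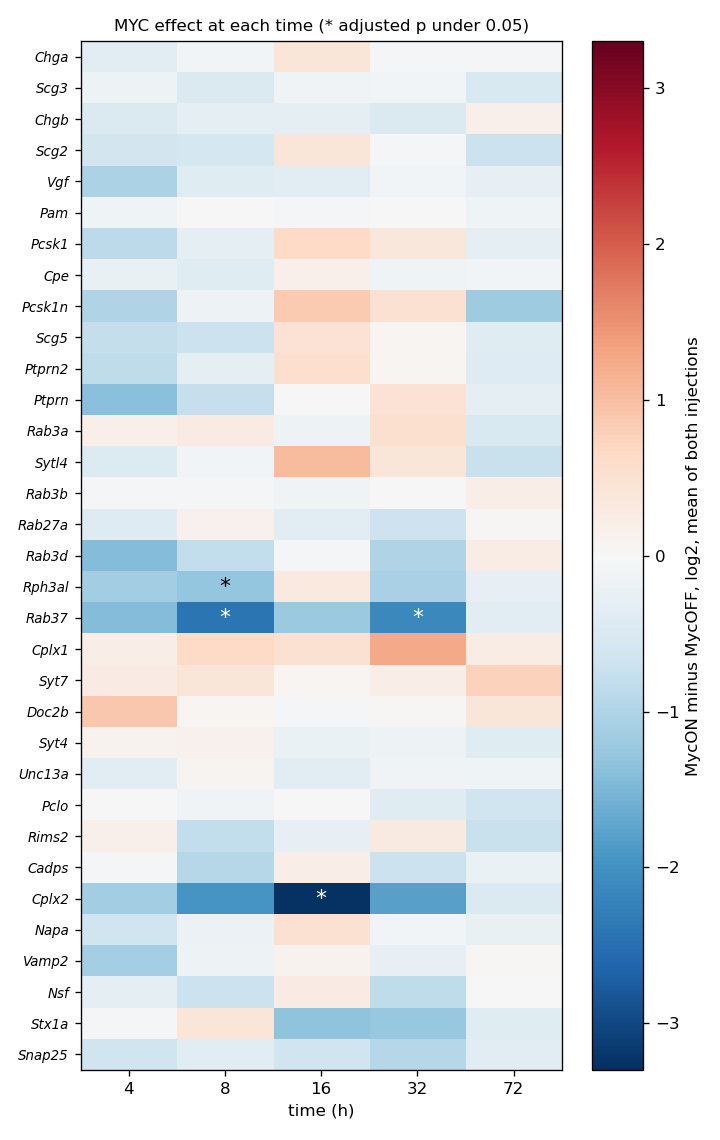
MYC effect (MycON minus MycOFF, log2, mean of both injections) for each of the 33 genes (y axis, by role) at 4, 8, 16, 32 and 72 h, in blue below 0 and red above 0, with a star at an adjusted p under 0.05. The 4 stars are Rab37 and Rph3al at 8 h, Cplx2 at 16 h and Rab37 at 32 h.

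Exendin-4 gave no call among the 33 genes. This held in MycOFF islets (0 of 33, 0.228% of all genes), in MycON islets (0 of 33, 0.0683%) and as the mean of both (0 of 33, 1.32%), all by limma. At an unadjusted p under 0.05 there was 1 of 33 in MycOFF islets and 0 of 33 in MycON islets, against 7.66% and 6.69% of all genes. As the mean of both, 13 of 33 genes were below 0 and the median was 0.06, against 50.6% and 0.00 over all genes. For the mean, 2 of 33 genes had an unadjusted p under 0.05, against 12.4% of all. These were the scaffolds of the release site: Rims2 at -0.61 (95% interval -1.05 to -0.17, limma adjusted p = 0.19) and Pclo at -0.37 (-0.69 to -0.06, limma adjusted p = 0.283). Rims2 was at -0.68 in MycOFF and at -0.54 in MycON islets, and Pclo at -0.33 and -0.41. The other 4 probe sets of Rims2 were at 0.15, 0.03, -0.02 and -0.23 with exendin-4, and those of Pclo at -0.08 and -0.05.

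The highest differences with exendin-4 were those of Ptprn at 0.44 (-0.21 to 1.09), Vamp2 at 0.43 (0.00 to 0.87) and Rab37 at 0.40 (-0.04 to 0.85). Among the cargo genes, Chga was at 0.17 (-0.05 to 0.39), Chgb at 0.05, Scg3 at -0.06 (-0.27 to 0.15), Scg2 at -0.13 and Vgf at 0.33 (-0.12 to 0.78). The processing enzyme Cpe was at -0.10 (-0.29 to 0.09). A 2-fold change in either direction is outside these intervals for Chga, Chgb, Scg3 and Cpe. It is inside them for Pcsk1n at 0.37 (-0.52 to 1.25), Ptprn and Cplx2 at 0.23 (-0.54 to 1.01). Among the beta cell markers, 3 of 13 fell with exendin-4 as the mean of both MYC states (Neurod1, Slc2a2 and Pax6), where 1.03% of all genes fell.

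**Figure D5:**
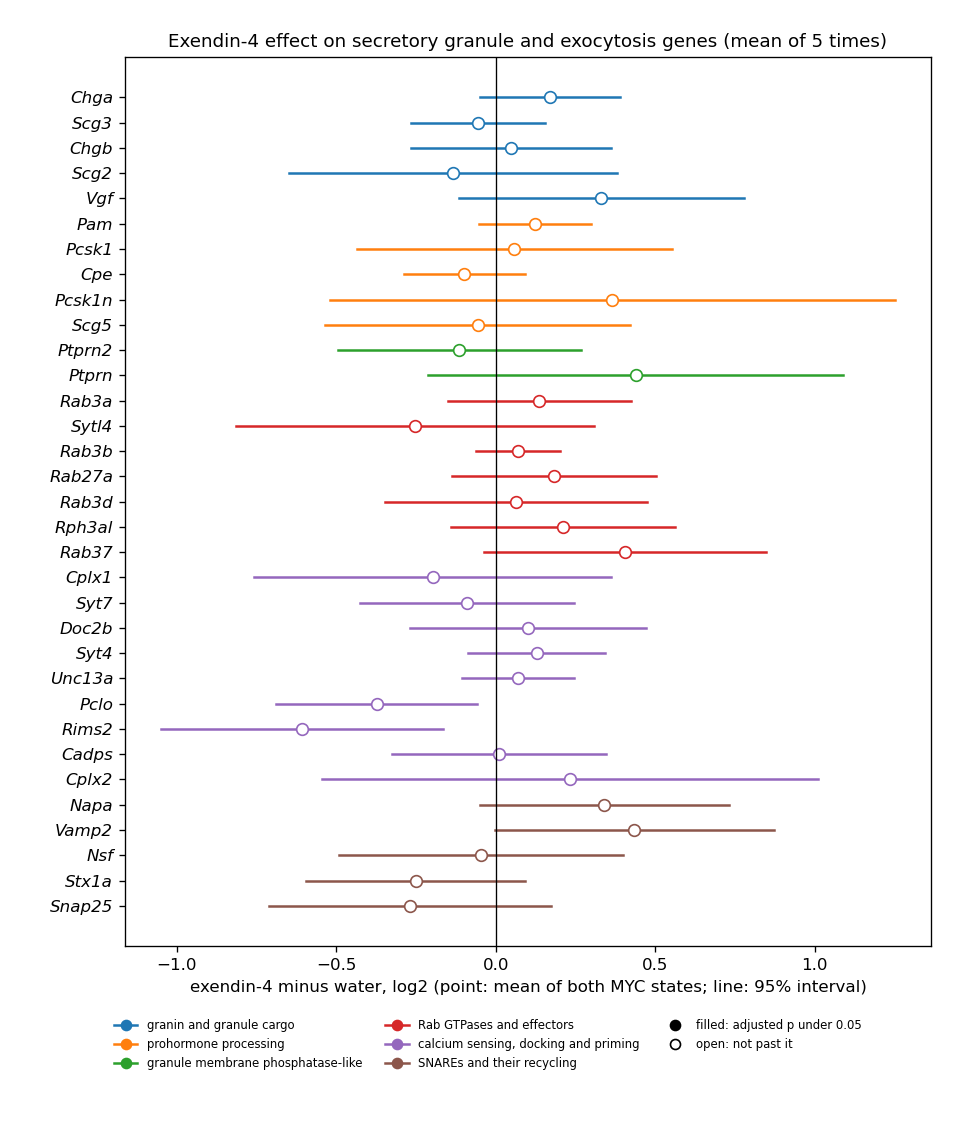
Exendin-4 effect (exendin-4 minus water, log2, mean of both MYC states and 5 times) for each of the 33 genes by role, with lines for the 95% interval; open points did not pass an adjusted p of 0.05. All points are open, and the intervals of Rims2 and Pclo lie below 0.

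Further genes of the same machinery gave 11 falls and 2 rises among 87 tested of 103 listed with MYC, where 5.48% of all genes fell and 9.93% rose. The list of further exocytosis genes held 6 of these falls among 49 tested, that of further granule genes 4 falls and 2 rises among 30, and that of calcium entry 1 fall among 8. Sv2a, a glycoprotein of synaptic vesicles and granules, fell by 1.04 ± 0.17 (limma adjusted p = 4.89e-05). Exph5, a Rab27 effector also called Slac2-b, differed by -0.81 ± 0.15 (limma adjusted p = 2.35e-04). Sort1, the sorting receptor sortilin, differed by -0.79 ± 0.16 and Slc18a1, a vesicular monoamine transporter, by -0.58 ± 0.13.

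The syntaxin Stx2 differed by -0.51 ± 0.13, and the calcium channel subunit Cacna1a by -0.68 ± 0.20 (limma adjusted p = 0.0194). The others that fell were Syt13, Rimbp2, Rab3gap1, Arfip1 and Ap1s2. The genes that rose were Pick1, a membrane-bending protein of immature granules, at 0.44 ± 0.14 (limma adjusted p = 0.0233), and Vti1a, a SNARE of the trans-Golgi, at 0.43 ± 0.14 (limma adjusted p = 0.0346). The median of the 87 genes was -0.14, and 60 of them were below 0. By list, 69.4% of the further exocytosis, 63.3% of the further granule and 87.5% of the calcium entry genes were below 0. Over all genes the share was 55.1%. With exendin-4, 0 of the 87 passed.

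Within groups the granule genes varied together in part. Over the deviations of the 52 arrays from their group means, the 528 pairs of genes had a median correlation of 0.20, from -0.74 to 0.89, and 392 pairs were above 0. The closest pairs were Scg2 with Scg5 (0.89), Pcsk1n with Ptprn (0.87) and Scg2 with Ptprn2 (0.86). Stx1a stood apart with a median correlation of -0.27 with the other genes. The arrays share RNA quality and the make-up of the captured tissue. Pcsk1n had a correlation of 0.80 with Sst, the hormone gene of delta cells, the highest of the granule genes. For the genes that fell with MYC, the correlation with Sst was 0.63 for Rph3al, 0.484 for Rab3d, 0.145 for Rab37, -0.343 for Cplx2 and -0.691 for Stx1a. In groups of 2 arrays the deviations mirror each other. These values describe the arrays and were not tested.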

How the data were processed

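Islet RNA was measured on 60 Affymetrix arrays. The deposited values are taken as log2 by the range of the values (-12.3 to 12.8, where natural logs of 16-bit intensities reach 11.1), and the authors had set the median of each probe set to 0. MAS5 and GCRMA appear, without role or version, in the submitters' processing notes, and the sources used here give no other step. The 52 kept arrays entered 1 linear model of 20 group means, fitted as deposited with limma 3.58.1 in R 4.3.3 with eBayes moderation (residual degrees of freedom 32, prior 2.75). Named genes came from the array annotation, and 13176 genes whose interquartile range was at or above the 40th percentile (0.101) were tested. Averaged contrasts weight the 5 times equally. Every adjusted p is from limma after Benjamini-Hochberg over all genes tested, in 14 comparisons, and values with ± carry a standard error. Scripts were tested on simulated data. All 33 measured members were to be named, with the members of 3 further lists with the smallest p. Members and lists were chosen with earlier results of these data known. The number of arrays limits the precision. Figures were drawn with matplotlib 3.10.9. Array omission, quantile normalization, centring, filters, averaged probe sets and the replicate number were tried as alternatives, and array weights, omission of the 4 arrays of widest spread and tests of single probe sets were chosen after seeing the data.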

Additional observations from a re-analysis of the deposited data

How the results depend on the processing

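The counts below are granule genes past the threshold among the 33, which were 5 for the MYC effect (mean of both injections), 3 with water, 1 with exendin-4, and 0, 2, 1, 1 and 0 at 4, 8, 16, 32 and 72 h. With all 60 arrays the counts were 2 for the MYC effect, 1 with water, 1 at 8 h and 0 at 16 h. Of the differences with water, 14 of 33 were then below 0. Over all genes 1073 passed for the MYC effect in place of 2031, and 177 with water in place of 737. Quantile normalization gave 9 for the MYC effect, 1 at 4 h, 0 at 16 h and 3 at 32 h. Averaged probe sets gave 2 with exendin-4, 1 at 4 h and 3 at 32 h, and array weights gave 2, 3 and 6 for these, with 0 at 16 h. Without a filter the count was 1 at 8 h and 0 at 16 h. Centring each array gave 0 at 16 h. Without the 4 arrays of widest spread the count was 0 at 16 h and 1 at 72 h. For the MYC effect the count was 7 with averaged probe sets (Pclo and Rims2 in). It was also 7 with array weights and without the 4 arrays of widest spread (in both, Scg3, Snap25 and Cadps in and Stx1a out). It was 4 with centring, 4 without a filter and 6 with a filter at the 60th percentile. Apart from the run with all 60 arrays, the counts over all genes in these runs are not given here. A higher or lower count of granule genes is therefore not set against a background. The causes were not tested.

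Rab3d did not pass with all 60 arrays (adjusted p = 0.604), centring (0.0534) or no filter (0.0543). Stx1a did not pass with all 60 arrays (0.0697), without the 4 arrays of widest spread (0.0538) or with array weights (0.051), and Rph3al did not with all 60 arrays (0.21). No difference that passed changed sign under any alternative run. Leaving out 1 array at a time gave 4 to 7 for the MYC effect, 1 to 3 with water, 1 to 2 with exendin-4, and 0 to 2, 1 to 2, 0 to 1, 0 to 2 and 0 to 1 at the 5 times. For the exendin-4 effects, the interaction and both tests over time it gave 0 to 0. Over all genes it gave 1730 to 2247 for the MYC effect, 496 to 839 with water and 505 to 894 with exendin-4. At the 5 times it gave 199 to 357, 214 to 600, 65 to 688, 181 to 501 and 67 to 350 of all genes. The exendin-4 effect gave 11 to 45 in MycOFF islets, 3 to 27 in MycON islets and 97 to 246 as the mean. The interaction had 0 to 2, the MYC effect over time 161 to 314 and the change in MycOFF islets 0 to 21. The 1 gene at 72 h appeared without MycOFF with exendin-4 at 72 h, replicate 2.

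Over all groups, deviations of arrays with the same replicate number had a median correlation of 0.00492 (425 pairs), against -0.00273 over 857 pairs of other numbers. In the smaller groups the deviations mirror each other, so these medians cannot decide whether the numbers pair the arrays. In groups of 3 alone, the median was 0.0294 over 198 pairs (-0.536 to 0.446). For other numbers it was -0.0162 over 396 pairs (-0.564 to 0.612). Pairing was thus not settled, and the main model did not use the numbers. With the replicate number as a block the MYC effect had 5 of 33 genes, with Snap25 (adjusted p = 0.0262) in and Rab3d (0.0503) out.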
